A study of Homo sapiens with 14 samples.

Results

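Sites of base change in RNA were compared between 293FT cells transfected with EGFP alone and 293FT cells that were not transfected. The members are all libraries whose treatment label names EGFP (3 libraries) or non-transfection (3 libraries), 6 of the 14 libraries analysed here, and they hold 15024 of the 46372 site calls. The line 293FT derives from human embryonic kidney and expresses the large T antigen of SV40. EGFP is the enhanced green fluorescent protein, which has no deaminase or other editing activity. The study asked whether a prime editor changes RNA bases without regard to its guide, and both of these groups served as controls that carried no editor according to their labels. Every title, those of the non-transfected cells included, also carries the name hRNF2. Whether the EGFP cells received a guide RNA, by what means they were transfected and how cells without a transgene were sorted was not given in the sources used here. Per the labels' protocols, cells of the first 15% by fluorescence were sorted 40 h after transfection, and the same text stands on the non-transfected libraries. EGFP transfection and the sort on its fluorescence therefore cannot be told apart. Nothing in the labels calls the replicates separate cultures, and the p-values then reflect only how these libraries spread, which may be technical.

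As background, adenosine-to-inosine (A-to-I) editing is carried out by ADAR enzymes, which deaminate adenosines in double-stranded RNA. Inosine pairs like guanosine, so an edited A is read as G in RNA sequencing. In human cells most such sites lie in introns and 3' untranslated regions (3' UTRs), where inverted Alu repeats fold into long duplexes, and few of them change a protein. Editing of these duplexes is known to limit their recognition by the cytoplasmic sensors of double-stranded RNA. C-to-U editing is carried out by APOBEC deaminases.

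The deposited lists gave, for each called site, the reads that cover it and the share of them with the changed base, called the level here. Between 6.63 and 7.59 gigabases (Gb) of mapped bases stood behind a list, and the median A-to-I site was covered by 22 to 25 reads, of which 3 were edited. In the 6 lists no site had under 2 changed reads or a level under 5.03%, so a site missing from a list may be unedited, uncovered or under these limits. No library was a copy of another. None of 9 blood cell and 9 fibroblast marker genes had a called site in any of the 6 libraries, which says nothing of their expression, because the lists hold sites and not expression. The lists show neither the EGFP transcript nor the level of any gene, so the labels could not be checked that way.

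The number of A-to-I sites did not separate the groups. EGFP libraries held 2585, 1912 and 2612 A-to-I sites and non-transfected libraries 2231, 2024 and 2038. Scaled to mapped bases, these were 376, 272 and 344 sites per Gb with EGFP and 310, 298 and 308 without transfection. EGFP replicate 2 was the lowest and EGFP replicates 1 and 3 the highest of the 6, so the groups overlapped and the EGFP libraries spread more widely (331 ± 53.2 per Gb, SD, n = 3) than the others (305 ± 6.28). On the log2 scale the difference was 0.10, with an exact permutation p = 0.5, two-sided, n = 3 per group. With 3 against 3 libraries this test cannot go below 0.1. Without EGFP replicate 2 the log2 difference was 0.24, and without EGFP replicate 1 it was 0.0041. Genes with at least 1 A-to-I site numbered 526, 465 and 526 with EGFP and 448, 475 and 456 without, which also overlapped.

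**Figure D1:**
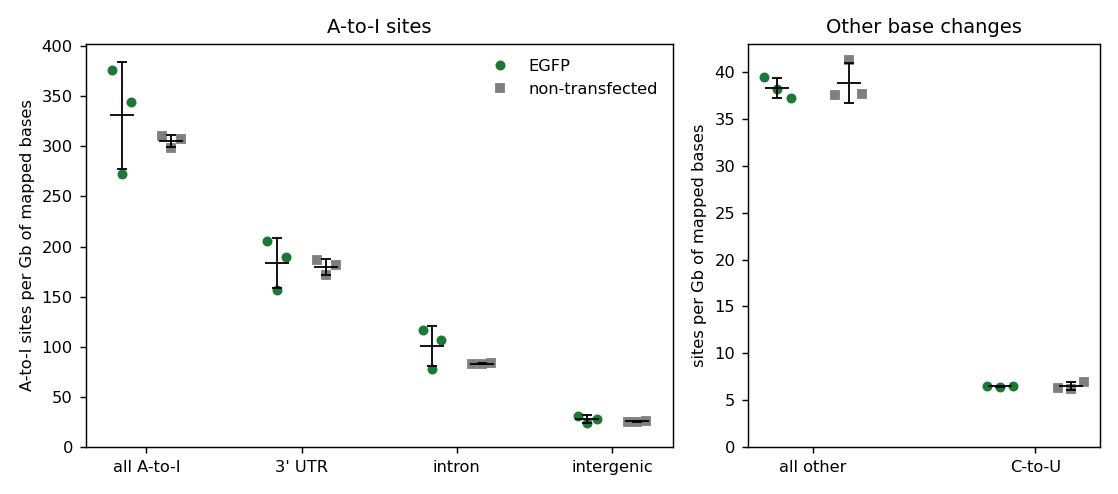
Called sites per Gb of mapped bases (vertical axes) in the 3 EGFP libraries (green circles) and the 3 non-transfected libraries (grey squares), for A-to-I sites by region on the left and for the other changes on the right, with the mean and SD in black. EGFP replicate 2 lies below and EGFP replicates 1 and 3 above the non-transfected libraries for all A-to-I sites, while C-to-U sites lie between 6.19 and 6.94 per Gb in all 6.

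The sites were placed differently among transcript regions. In EGFP libraries 31.1%, 28.7% and 30.9% of A-to-I sites were intronic, against 26.8%, 27.7% and 27.2% in non-transfected libraries. All 3 EGFP values lay above all non-transfected values (30.2% ± 1.38 against 27.2% ± 0.479, exact permutation p = 0.1, n = 3 per group, adjusted 0.333 over 10 comparisons). The share in 3' UTRs mirrored this, with 54.5%, 57.4% and 55.1% in EGFP libraries and 60.2%, 57.5% and 58.9% in the others. EGFP replicate 2 and non-transfected replicate 2 stood next to each other, so the groups were only just apart (exact permutation p = 0.1, n = 3 per group, adjusted 0.333). Neither share passed the adjusted threshold of 0.05, which this design cannot reach. Coding sequence held 1.18% ± 0.164 of A-to-I sites with EGFP and 1.44% ± 0.265 without, and these values overlapped, as did those of 5' UTRs, non-coding exons and intergenic positions.

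Most distinct A-to-I sites were seen in few libraries. Of 6314 distinct A-to-I sites in the 6 lists, 3451 (54.7%) were called in a single library and 432 (6.84%) in all 6. Within EGFP libraries, 28.4%, 25.3% and 28.8% of A-to-I sites were called in no other of the 6 libraries, against 24.0%, 23.9% and 22.7% within non-transfected libraries. A library shared on average 47.2% of its A-to-I sites with another EGFP library and 42.4% with a non-transfected library when it was an EGFP library, and 49.1% with its own group and 47.6% with the EGFP group when it was a non-transfected library. Overlap of lists moves with depth, so these shares are a description.

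The 432 A-to-I sites called in all 6 libraries had a higher mean level in the EGFP libraries. They lie in 132 genes, with 285 sites in 3' UTRs, 78 in introns, 42 at intergenic positions, 15 in non-coding exons, 8 in coding sequence and 4 in 5' UTRs. Their mean level was 31.8%, 30.8% and 30.5% in the EGFP libraries and 27.0%, 27.4% and 26.6% in the non-transfected libraries. Every EGFP library lay above every non-transfected library, and the gap between the groups was several times the SD within either (31.0% ± 0.714 against 27.0% ± 0.401). The difference of 4.0 percentage points had an exact permutation p = 0.1, n = 3 per group, the smallest this design allows, adjusted 0.333 over 10 comparisons. The mean level was higher with EGFP at 309 of the 432 sites (71.5%), and the median difference in log2 odds of editing was 0.29. Weighting sites by their reads gave 27.5%, 27.2% and 26.9% against 24.2%, 24.8% and 24.0%, a smaller difference of 2.87 points that also left the groups apart. The shared sites made up 16.5% to 22.6% of the A-to-I sites of an EGFP library and 19.4% to 21.3% of a non-transfected library. Over all A-to-I sites the median level was 15%, 14.3% and 13.6% with EGFP and 13.3%, 14.3% and 14.3% without. These medians overlapped (exact permutation p = 0.6, n = 3 per group, adjusted 0.75 over 10 comparisons). The share of all A-to-I sites edited at 50% or more was 7.97%, 7.53% and 6.74% with EGFP and 5.60%, 6.37% and 6.48% without. Here the groups were apart (exact permutation p = 0.1, n = 3 per group, not adjusted). They were only just apart for sites edited at 10% or more and overlapped for sites edited at 20% or more.

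By region, the groups were apart in introns, 3' UTRs and at intergenic positions and overlapped in coding sequence, non-coding exons and 5' UTRs. Intronic shared sites averaged 34.9%, 34.2% and 35.6% in EGFP libraries and 26.7%, 27.5% and 25.7% in non-transfected libraries. The intronic difference of 8.26 points was the largest of the regions. In 3' UTRs the levels were 31.9%, 30.6% and 29.9% against 27.7%, 28.0% and 27.3%, a difference of 3.13 points. At intergenic sites they were 29.7%, 28.7% and 29.7% against 25.1%, 25.9% and 25.4%, a difference of 3.89 points. Each of these comparisons had the smallest p of the design (exact permutation p = 0.1, n = 3 per group). At the 8 coding sites the levels were 26.8%, 26.5% and 22.1% against 29.1%, 21.5% and 27.5% and overlapped. Whether introns differed from 3' UTRs in the size of the difference was not tested. Without IQCB1, which gave 10 of the 78 intronic sites, the intronic difference was 6.68 points over 68 sites, and without the 3 genes with the most intronic shared sites it was 8.15 points over 50 sites in 26 genes.

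**Figure D2:**
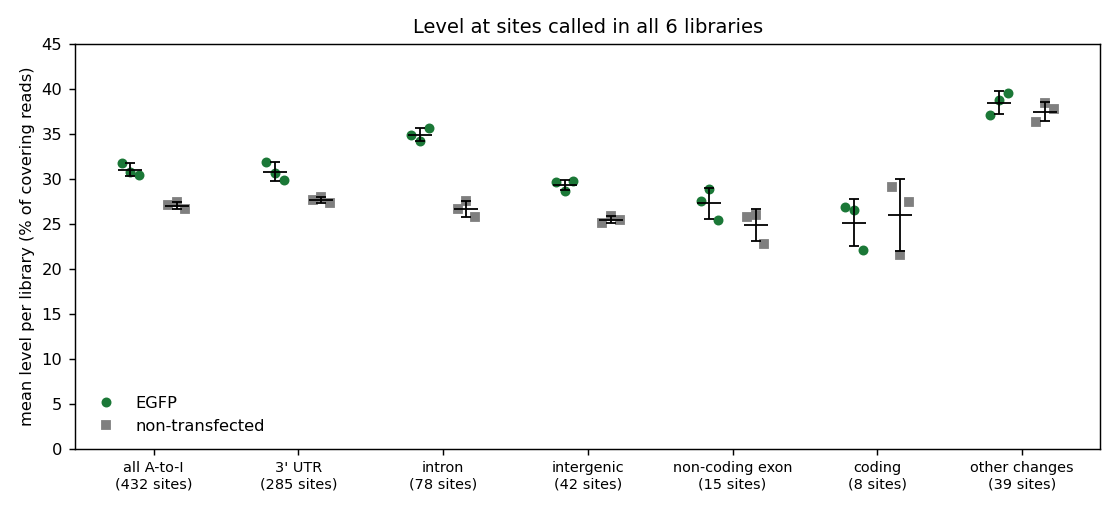
Mean level (vertical axis, percent of covering reads) per library at sites called in all 6 libraries, by region for A-to-I sites and for the 39 sites of other changes together, with EGFP libraries as green circles, non-transfected libraries as grey squares and the mean and SD in black. The groups are apart for all A-to-I sites, 3' UTRs, introns and intergenic sites and overlap in coding sequence, non-coding exons and the other changes.

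Read coverage also differed between the groups, though not in every region. At the shared sites the mean log2 covering reads per Gb was 2.36, 2.25 and 2.38 in EGFP libraries and 2.57, 2.53 and 2.52 in non-transfected libraries, lower with EGFP in all 3. The difference in log2 coverage was -0.21 over all shared sites, -0.21 in 3' UTRs and -0.36 in introns, where the groups were apart. At intergenic sites, whose levels were apart, coverage overlapped (2.41, 2.07 and 2.39 against 2.53, 2.47 and 2.30). Across the 432 sites the difference in coverage and the difference in level had a Pearson correlation of -0.037, given as a description because the sites share their libraries. A shared site had to pass the limits of the lists in every library. On fewer covering reads, 2 changed reads make a higher level, so these limits can leave higher levels where coverage is lower. By how much this moved the level of the EGFP libraries was not tested. With only sites of at least 20 covering reads, the level difference was 3.56 points. The lists hold no reads per gene, so less RNA of these transcripts and fewer cells that express them cannot be told apart.

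Site by site, every call was in the direction of more editing with EGFP. In limma on weighted log2 odds, 16 of the 432 shared sites passed an adjusted p of 0.05 (3.7%), all 16 higher and 0 lower in EGFP cells. Before adjustment 61 sites had p under 0.05, 56 of them higher and 5 lower. Of the 78 intronic sites 8 were called, and of the 285 sites in 3' UTRs 6 were. The calls fell in 10 genes and at 1 intergenic position. Sites whose 3 EGFP values all lay above the 3 non-transfected values numbered 68 (15.7%), and 8 lay wholly below (1.85%). Among introns these counts were 24 above and 0 below, and among 3' UTRs 35 above and 5 below. The number of calls depended on the libraries: it was 1 without non-transfected replicate 1, 8 without non-transfected replicate 3, 9 without non-transfected replicate 2, 10 without EGFP replicate 2, 12 without EGFP replicate 1 and 19 without EGFP replicate 3. A quasi-binomial logistic model called 7 sites and limma on unweighted percent called 4, all of which were among the 16.

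**Figure D3:**
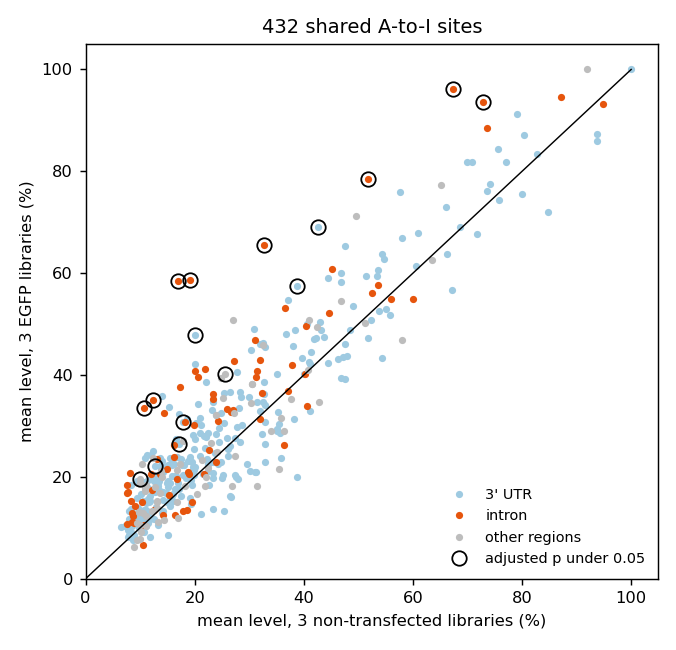
Mean level of each of the 432 shared A-to-I sites in the 3 EGFP libraries (vertical axis, percent) against the 3 non-transfected libraries (horizontal axis, percent), coloured by region, with a line of equal level and black rings around the 16 sites that passed the test. All rings lie above the line.

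The intron of IQCB1, the gene of a ciliary protein also known as nephrocystin-5, held 4 of the 16 called sites. At chromosome 3 position 121833216 (GRCh38, minus strand), 57.1%, 53.3% and 65.4% of reads were edited with EGFP and 21.6%, 21.1% and 15.0% without. The lowest EGFP library was well above the highest non-transfected library, on 21 to 30 covering reads against 37 to 40. The log2 odds rose by 2.46 ± 0.442 (SE, limma adjusted p = 6.01e-05), and this site was the single call left without non-transfected replicate 1 (limma adjusted p = 0.0164). At position 121833226 the levels were 57.1%, 59.4% and 80.0% against 36.8%, 28.9% and 32.5%. At position 121833205 they were 100%, 96.3% and 92.3% against 66.7%, 68.8% and 66.7%. Position 121833912 was the fourth called site, with 95.2%, 92.9% and 92.6% against 80.6%, 75.8% and 62.1%. Over all 10 shared IQCB1 sites, which are close enough for some to share reads, the mean level was 52.6%, 47.6% and 55.1% against 33.3%, 35.1% and 30.0%. Of these 10 sites 9 had the higher mean with EGFP and 7 lay above without overlap, beside 71.5% and 15.7% of all 432 shared sites. The exception, position 121832395, averaged 13.4% with EGFP and 17.9% without.

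RPL36A, UCHL1 and HP1BP3 gave the other intronic calls. RPL36A encodes a protein of the large ribosomal subunit, and its intronic site at X chromosome position 101394236 was edited at 64.7%, 67.9% and 42.9% with EGFP and 18.2%, 19.4% and 13% without. The 41.6-point difference there was the largest of all sites whose groups did not overlap, and the log2 odds rose by 2.55 ± 0.499 (SE, limma adjusted p = 0.000228). A further RPL36A site, position 101394277, also passed, with 28.6%, 40.5% and 36.1% against 14.3%, 15.2% and 7.41%. UCHL1 encodes a ubiquitin hydrolase abundant in neurons. At its intronic site on chromosome 4 (position 41266753) the levels were 27.0%, 40.0% and 33.3% against 11.9%, 11.9% and 8.11%, and the log2 odds rose by 1.92 ± 0.472 (SE, limma adjusted p = 0.00561). HP1BP3 encodes a chromatin protein that binds heterochromatin protein 1. Its intronic site on chromosome 1 (position 20775410) was edited at 75.8%, 82.4% and 77.3% against 54.2%, 52.6% and 48.8% (limma adjusted p = 0.00562), not called without EGFP replicate 2 (limma adjusted p = 0.0702). At each of these sites all EGFP libraries stood above all non-transfected libraries. None of them was called without non-transfected replicate 1. With 1 library left out, the limma adjusted p reached 0.0552 at RPL36A position 101394236 and 0.0586 at the UCHL1 site.

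**Figure D4:**
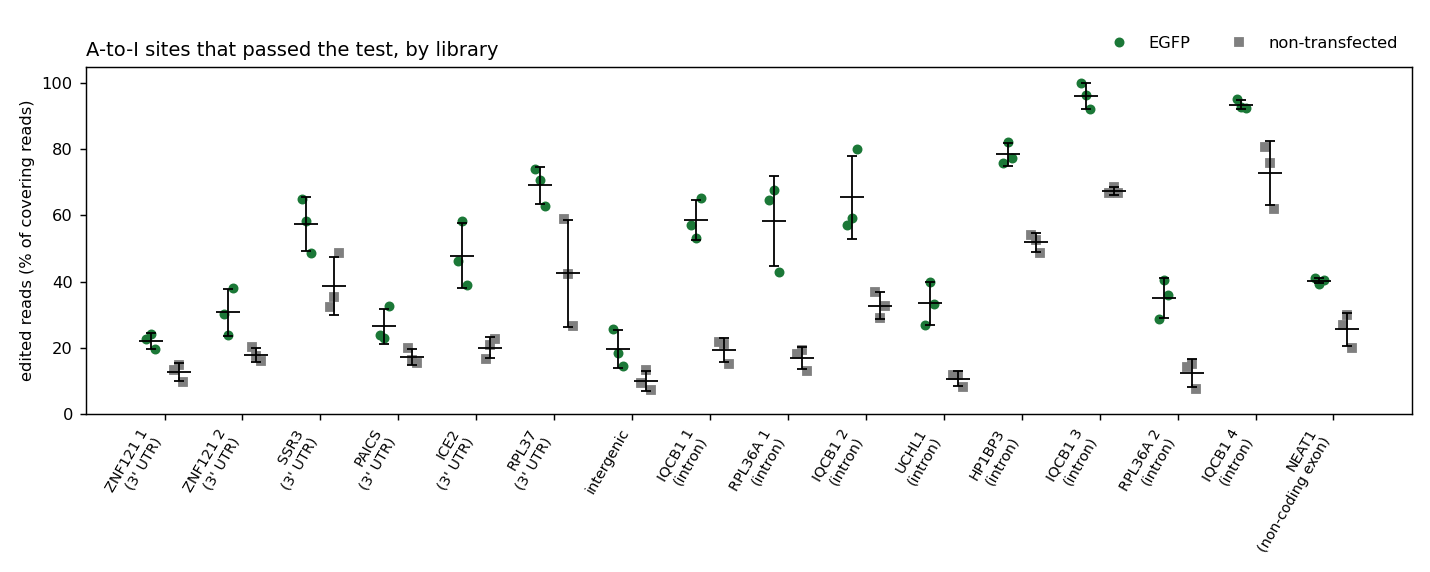
Level at the 16 called A-to-I sites (vertical axis, percent of covering reads) in each EGFP library (green circles) and each non-transfected library (grey squares), with mean and SD in black, sites grouped by region and numbered within a gene by increasing p. At all 16 sites the EGFP values lie above the non-transfected values, with the smallest gap at SSR3.

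Of the 7 called sites in exons, 6 lie in 3' UTRs and 1 in the non-coding RNA NEAT1. Sequences of 6 of these sites are shown because they are called sites within a transcript sequence, with 10 bases to each side and the edited A in capitals, from the transcripts of GENCODE release 29 on GRCh38 and written 5′ to 3′ on the RNA strand.
ZNF121 first site (chr19:9562257-9562277, minus strand): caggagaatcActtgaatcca
ZNF121 second site (chr19:9562929-9562949, minus strand): taaagactgcAggtgtgcacc
SSR3 (chr3:156541496-156541516, minus strand): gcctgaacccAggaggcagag
PAICS (chr4:56460115-56460135, plus strand): gaaccctagtAattctcctat
ICE2 (chr15:60422214-60422234, minus strand): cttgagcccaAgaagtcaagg
NEAT1 (chr11:65442609-65442629, plus strand): atggtggctcAcgcctgaatc
The base before the edited A was C, T or A in these sequences and never G.

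ZNF121, a zinc finger gene, had the best covered of these sites. At its first site (chromosome 19 position 9562267) 22.7%, 24.1% and 19.5% of 176 to 224 reads were edited with EGFP, against 13.3%, 14.9% and 9.79% of 194 to 203 reads without. The groups were apart, and the log2 odds rose by 0.94 ± 0.215 (SE, limma adjusted p = 0.0026). It was just not called without non-transfected replicate 1 or 3 (limma adjusted p = 0.0555 and 0.052). At the second site (position 9562939) the levels were 30.3%, 23.9% and 38.1% against 20.3%, 17.4% and 16.1%. Of 7 shared ZNF121 sites, 6 had the higher mean with EGFP, beside 71.5% of all 432 shared sites. The gene's mean level was 20.5%, 21.5% and 20.9% against 15.9%, 16.2% and 13.9%. PAICS, which encodes an enzyme of purine synthesis, was edited at 24.0%, 23.0% and 32.5% against 20%, 16.2% and 15.4%. Without EGFP replicate 3, whose value was the highest, the PAICS log2 odds difference was 0.55 in place of 0.79 and was not called (limma adjusted p = 0.165). It was not called either without any 1 of the non-transfected libraries (limma adjusted p from 0.054 to 0.0924).

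SSR3 encodes the gamma subunit of the translocon-associated protein complex. Its site was edited at 65.1%, 58.5% and 48.7% with EGFP and 32.3%, 35.2% and 48.6% without, so EGFP replicate 3 and non-transfected replicate 3 were almost equal. The call (limma adjusted p = 0.00611) was lost without EGFP replicate 1, non-transfected replicate 1 or non-transfected replicate 2, with limma adjusted p = 0.0897, 0.276 and 0.054. All 9 shared SSR3 sites had the higher mean with EGFP, beside 71.5% of all 432 shared sites. ICE2, which encodes a subunit of the little elongation complex, was edited at 46.2%, 58.3% and 39.1% against 16.7%, 20.7% and 22.7%, on no more than 29 reads in any library. It was not called without EGFP replicate 2 (limma adjusted p = 0.18) or without any 1 of the non-transfected libraries (limma adjusted p from 0.0568 to 0.157). RPL37 encodes another protein of the large ribosomal subunit. Its site was edited at 73.9%, 70.6% and 62.9% against 58.8%, 42.4% and 26.5%, with non-transfected values spread widely (42.6% ± 16.2), and was the weakest call (limma adjusted p = 0.0473).

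NEAT1 is the long non-coding RNA that scaffolds paraspeckles, nuclear bodies known to hold edited RNA. At its called site 41.0%, 39.4% and 40.4% of reads were edited with EGFP and 26.9%, 29.9% and 20% without. The EGFP libraries were close together and lay above the others (40.3% ± 0.786 against 25.6% ± 5.06, limma adjusted p = 0.0282). The site was called without EGFP replicate 3, and not without any other 1 library (limma adjusted p from 0.0513 to 0.23) or in the quasi-binomial model (adjusted p = 0.0924). At the other shared NEAT1 sites the differences were not called. At position 65440055 the mean was lower with EGFP, 7.86% against 10.1%. The remaining call, at an intergenic position of chromosome 3 (position 10152294, plus strand), had levels of 25.7%, 18.5% and 14.4% against 9.40%, 13.1% and 7.14%. It was not called without EGFP replicate 1, non-transfected replicate 1 or non-transfected replicate 3, with limma adjusted p = 0.252, 0.259 and 0.164.

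No shared site passed the test in the direction of less editing with EGFP, and the sites whose values lay wholly below are given as values. ZNF431, a zinc finger gene, had 20.8%, 15.0% and 24.1% with EGFP and 31.8%, 31.3% and 52.9% without at a 3' UTR site (limma adjusted p = 0.258). NUP210 encodes a membrane protein of the nuclear pore, and its edited A lies in coding sequence and changes isoleucine to valine (I608V). There 31.9%, 20.5% and 12.2% of reads were edited with EGFP, against 36.5%, 35.9% and 34.1% without (limma adjusted p = 0.15). The non-transfected libraries were close together and the EGFP libraries were not, and without EGFP replicate 1, the highest of them, this site was called as lower (limma adjusted p = 0.00522). Its sequence is shown as the 1 site that changed its call to lower:
NUP210 (chr3:13366046-13366066, minus strand): ctgcagcggcAtccgggtaaa
The HSPA4L site in the 3' UTR, in a gene of the heat shock protein 110 family, averaged 13.3% ± 0.915 with EGFP and 25.3% ± 4.07 without. The SYAP1 site averaged 22.9% ± 5.02 against 32.9% ± 1.18.

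The most strongly edited shared sites were close to complete in both groups. The NF2 site in the 3' UTR, in the gene of the tumour suppressor merlin, read as G in 100% of reads in all 6 libraries. RNA lists alone do not tell complete editing from a G in the genome of the line. An intergenic site on chromosome 7 (position 152645914) had 100% in each EGFP library and 88.1%, 96.7% and 90.9% in the others. The intronic sites of SMPD4, a sphingomyelinase gene, and SRP9, which encodes a subunit of the signal recognition particle, averaged 93.2% and 94.5% with EGFP and 94.9% and 87.2% without. TMPO, which encodes lamina-associated polypeptides, and XPOT, which encodes the exporter of tRNA from the nucleus, had means of 87.4% and 85.9% with EGFP and 93.8% and 93.7% without. None of these 6 sites was called.

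Summed by gene, the same direction appeared in many transcripts. Of 53 genes with at least 3 shared sites, the mean level was higher with EGFP in 39, lay above in all libraries in 18 (34%) and lay below in all libraries in 0. NUP155, a nuclear pore gene with the most shared sites (13), had 43.2%, 44.6% and 45.8% with EGFP and 38.1%, 45.2% and 43.2% without, which overlapped. DFFA encodes the inhibitor of the apoptotic nuclease CAD, and its 11 sites averaged 21.1%, 18.2% and 20.7% against 16.4%, 17.4% and 12.9%. The groups were apart in DFFA, though EGFP replicate 2 and non-transfected replicate 2 were close to each other. MBD3, which encodes a subunit of the NuRD chromatin complex, averaged 23.8% ± 1.68 over 10 intronic sites with EGFP and 19.9% ± 2.79 without. MRPL30 and SPC24, genes of the mitochondrial ribosome and of the kinetochore, averaged 31.6% and 24.0% with EGFP and 32.7% and 25.4% without over 10 sites each and overlapped. Genes that lay above in all libraries also included GJC1 (30.2% against 22.9%), PRKCSH (47.4% against 35.4%) and NOM1 (31.2% against 20%).

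**Figure D5:**
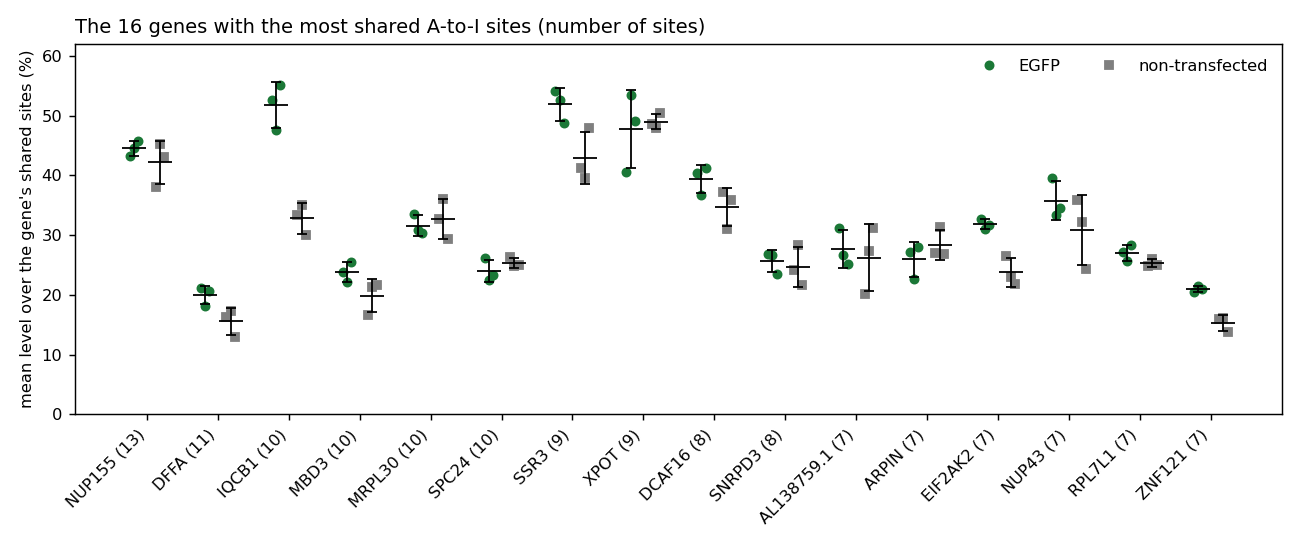
Mean level over a gene's shared A-to-I sites (vertical axis, percent) in each EGFP library (green circles) and each non-transfected library (grey squares) for the 16 genes with the most shared sites, the number of which stands in parentheses, with mean and SD in black. DFFA, IQCB1, MBD3, SSR3, EIF2AK2 and ZNF121 are apart, while MRPL30, SPC24, XPOT and ARPIN overlap with the lower mean in EGFP cells.

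Among genes of double-stranded RNA sensing and the interferon response, shared sites lay in EIF2AK2 and MAVS. EIF2AK2 encodes PKR, the kinase that double-stranded RNA activates to stop translation, and MAVS encodes the mitochondrial adaptor of the RNA helicase sensors. Over the 13 shared sites of this list, 10 had the higher mean with EGFP, 3 lay above without overlap, and 0 were called. Over all 432 shared sites these shares were 71.5%, 15.7% and 3.7%, and the counts of this list are near them. The median log2 odds difference was 0.27, beside 0.29 over all shared sites. The 7 EIF2AK2 sites averaged 32.7%, 31.1% and 31.7% with EGFP and 26.5%, 23.0% and 21.9% without, with the EGFP libraries above. Its most edited shared site, shown as the most edited site of this gene, had 80.6%, 72.2% and 75.0% against 63.6%, 61.5% and 47.8% (limma adjusted p = 0.0826).
EIF2AK2 (chr2:37100509-37100529, minus strand): ctaaataactAgaaactgtat
The 6 MAVS sites averaged 34.1%, 32.5% and 35.4% against 28.2%, 37.3% and 27.9%, and non-transfected replicate 2 was the highest of the 6 libraries.

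The other lists held few shared sites, and their counts are to be read beside the same shares over all shared sites (71.5% with the higher mean, 15.7% above without overlap, 3.7% called). The cell death and p53 list had 14 shared sites in DFFA, XIAP and MDM4, of which 12 had the higher mean with EGFP, 1 without overlap, and 0 were called. XIAP, an inhibitor of caspases, averaged 51.5% ± 8.21 and 49.1% ± 7.38. The DNA repair list had 6 shared sites in 3 genes, 5 with the higher mean, 2 without overlap, and 0 called. In it MRE11, a nuclease that processes broken DNA ends, had 52.6%, 31.6% and 42.1% against 27.8%, 20% and 12.5% at a 3' UTR site, above in all libraries but not called (limma adjusted p = 0.167). The zinc finger genes had 21 shared sites in 7 genes, 15 with the higher mean, 6 above and 1 below without overlap, and 2 called, both in ZNF121. The shared 3' UTR site of ZNF621 had 60.6%, 56.5% and 47.4% against 36.4%, 41.7% and 33.3%, and ZNF850 overlapped at both of its sites. The histone list had 5 shared sites, all in an intron of H2AFV, a histone variant gene, which averaged 20.7% ± 3.60 against 14.7% ± 0.780. The 1 mitochondrial site, in the ribosomal RNA MT-RNR1, averaged 12.3% ± 4.82 and 11% ± 1.77. Genes of the editing enzymes and their regulators had no shared site. ZFR and DHX9, which encode double-stranded RNA binding proteins, had sites in 4 and 3 libraries. The stress response list had 1 site, in the heat shock factor gene HSF1, called in non-transfected replicate 1.

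Of the reported recoding targets of ADAR, NEIL1 alone had shared sites, and they were intronic. NEIL1 encodes a DNA glycosylase of base excision repair. At its 3 shared sites the levels were apart at 1, position 75353280, with 34.1%, 36.4% and 38.5% with EGFP and 23.7%, 24.4% and 22.2% without (limma adjusted p = 0.265). The recoding site of NEIL1 (K242R, chromosome 15 position 75353745) was listed in non-transfected replicates 1 and 3 and in no EGFP library. Its level was 57.9% of 19 reads (95% exact binomial interval 33.5 to 79.7, counting error only) and 52.6% of 19 reads (28.9 to 75.6), and its absence elsewhere is no level of 0. BLCAP, which encodes an apoptosis-inducing protein, was edited at Y2C in EGFP replicate 3 (26.9% of 26 reads) and non-transfected replicate 2 (22.2% of 18 reads). RNF2, the gene named in the titles, had no called site in the 6 libraries.

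Coding sequence held 102 distinct A-to-I sites in the 6 libraries, of which 65 change an amino acid and 37 are synonymous. Only NUP210 of the 8 shared coding sites did not overlap between the groups. TDP2, which encodes a phosphodiesterase that removes topoisomerase from DNA, was edited at N59D at 32.6%, 33.3% and 29% with EGFP and 34.9%, 33.3% and 39.4% without. NUP153, another nuclear pore gene, was edited at I248V at 39.8%, 36.5% and 30.1% against 39.0%, 12.8% and 23.7%. SRP9 was edited at I64M at 34.5% ± 4.07 against 30.4% ± 5.28. The groups overlapped at all 3 of these sites, those of TDP2 only at 33.3%.

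Some sites were called in all 3 libraries of 1 group and in none of the other. Of 607 A-to-I sites called in exactly 3 of the 6 libraries, 68 were of this kind with EGFP and 48 without transfection. These counts have no test, since absence is not a level of 0, and the median of the fewest edited reads in a library was 2, the smallest the lists hold. They depended on the limits: with at least 5 changed reads they were 35 and 14, and with at least 20 covering reads 37 and 31. Of the 68 EGFP sites 61 were also called in at least 1 of the 8 libraries that received Cas9, hA3A-BE3 or PE3, and of the 48 non-transfected sites 29 were. The same share over all A-to-I sites is not set beside these counts, so neither can be called high or low. By region 34 of the 68 EGFP sites were intronic and 31 in 3' UTRs, and of the 48 non-transfected sites 25 and 17. Over all A-to-I sites of a library, introns held 28.7% to 31.1% with EGFP and 26.8% to 27.7% without. For 3' UTRs these shares were 54.5% to 57.4% and 57.5% to 60.2%. Private sites were thus more often intronic than all sites in both groups, which was not tested.

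The private EGFP sites with the highest level were intronic in TRPS1, a transcription factor gene (75.7% ± 14.3), in the 3' UTR of EXOSC6, a subunit gene of the RNA exosome (61.9% ± 15.4), and in introns of ZNF644 (51.2% ± 13) and of the non-coding gene DANT2 (43.6% ± 16.5). Each of these was called in 2 to 5 of the 8 other libraries. Those of non-transfected cells were in the 3' UTR of SFXN2, a mitochondrial serine transporter family gene (67.4% ± 1.2), an intron of DAP3, which encodes a mitochondrial ribosomal protein (65.0% ± 6.50), the 3' UTR of LYRM7 (60.3% ± 5.60) and an intron of ANAPC5, an anaphase-promoting complex gene (57.6% ± 17.2). None of these 4 was called in any of the 8 libraries that received an agent other than EGFP. All 8 sites had at most 27 covering reads in any library of their group.

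The other 11 base changes together, and C-to-U changes alone, overlapped between the groups. Libraries held 271, 268 and 283 such sites with EGFP and 270, 280 and 250 without, or 38.3 ± 1.09 and 38.8 ± 2.10 per Gb (exact permutation p = 0.8, n = 3 per group). C-to-U sites numbered 45, 45 and 49 against 45, 42 and 46, which is 6.47 ± 0.0709 and 6.46 ± 0.416 per Gb (exact permutation p = 1, n = 3 per group). A-to-T and C-to-A sites were fewer in every EGFP library, 6, 5 and 7 against 8, 8 and 8 and 11, 12 and 11 against 13, 17 and 15. Each had an exact permutation p = 0.1, n = 3 per group, adjusted 0.6 over 12 changes.

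At the 39 sites of other changes called in all 6 libraries, the mean level was 37.1%, 38.8% and 39.6% with EGFP and 36.3%, 38.4% and 37.7% without. The groups overlapped (exact permutation p = 0.4, n = 3 per group), unlike those of the A-to-I sites, though the difference between the kinds of site was not tested. At 2 of the 39 sites the mean level over the 6 libraries was 90% or more. RNA lists alone do not tell a change in RNA from a variant in the genome of the line at any of these sites. Of the 39 sites 1 lay wholly above with EGFP (2.56%), a T-to-C site in an intron of MCM8-AS1, named after its values were seen (89.5%, 93.8% and 81.5% against 75.0%, 65.5% and 57.1%), and 0 lay below. The C-to-U site in the 5' UTR of DAD1, a subunit gene of oligosaccharyltransferase, had 48.3%, 41.2% and 35.6% with EGFP and 42.6%, 41.6% and 50.7% without. The site in the 3' UTR of G3BP1, a stress granule gene, had 36.1%, 36.4% and 39.2% against 31.3%, 36.1% and 35.5%. Intronic C-to-U sites of ZNF544 (32.8% against 28.4%) and ATAD3B (25.9% against 32.8% at the first of a pair) overlapped as well.

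The share of G beside the edited A overlapped between the groups. Where a transcript gave the sequence, G preceded the edited A at 4.97% to 6.72% of A-to-I sites of an EGFP library and 4.59% to 5.69% of a non-transfected library. G followed it at 44.5% to 48.1% and 47.1% to 47.8%. T followed it at 13.4%, 13.8% and 13.1% with EGFP and 13%, 12.2% and 11.6% without, with all EGFP values above, a difference that was not tested. ADAR enzymes are known to disfavour G before and favour G after the edited A. The sequence was known for 66.4% to 70.7% of the A-to-I sites of a library, mostly exonic ones.

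The libraries of cells transfected with Cas9, a further control, carry the same sorting text and give values to set beside these. At the 236 A-to-I sites called in all 9 libraries of the 3 groups, the mean level was 33.8%, 32.3% and 32.2% with EGFP, 29.1%, 29.5% and 29% without transfection and 28.7%, 32.4% and 31.6% with Cas9. Cas9 replicate 1 lay below the non-transfected libraries and the others above them. At the 30 intronic sites among these the Cas9 libraries had 33.0%, 39.7% and 35.5%, all above the non-transfected 26.5%, 27.8% and 26.1%, and the EGFP libraries had 37.0%, 33.9% and 34.5%. At the 155 sites in 3' UTRs the Cas9 libraries had 29.2%, 32.7% and 32.1%, which overlapped with the non-transfected 30.1%, 30.7% and 30.0%. Of 37 Cas9 values at the called sites, 24 lay above every non-transfected value of their site. In introns these were 17 of 17 and in 3' UTRs 5 of 14. The sites were called because non-transfected levels lay below EGFP levels, so high counts can follow in part from that choice. Only listed values count: of the 16 called sites 9 were listed in all 3 Cas9 libraries, and absence is no level of 0. Neighbouring IQCB1 sites gave many of the intronic values and may share reads. The same share over all shared sites is not given, so neither count can be called high or low. The IQCB1 site at position 121833216 had 48.3%, 62.5% and 56.7% with Cas9, and the HP1BP3 site 57.9%, 73.3% and 90.6%. The first ZNF121 site had 11.2%, 10.8% and 15.0% with Cas9, close to its non-transfected values, and the second 26.2%, 18.3% and 23.2%. These values share the non-transfected libraries with the comparison above and were not tested.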

How the data were processed

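Per the labels' protocols, ribosomal and globin RNA were removed from total RNA and stranded libraries were sequenced in paired reads of 150 bases. The submitters' processing notes name BWA 0.7.17, GRCh38 and hg38. Site caller and filter settings were not given in the sources used here. For each library the authors deposited a headerless list of sites with counts of covering and changed reads, the edited fraction and a depth signal per Gb. The deposited depth signal equals a read depth divided by a constant per library, read here as mapped bases; this is an inference from the values. Bases and strand were recovered from the counts, and 4804 of 4804 exonic sites of the 6 libraries matched the GENCODE release 29 transcript base. Of the distinct sites, 92.7% had a gene on that strand, and 0.625% had genes on both strands, where the strand call decides the gene. A site in several kinds of region took coding sequence first, then UTRs (3' before 5'), non-coding exons and introns. Protein changes are numbered in the longest coding transcript.

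Numbers per Gb were tested on the log2 scale and shares as percent, by two-sided exact permutation of 3 against 3 libraries (20 assignments), with Benjamini-Hochberg adjustment. Shared sites were tested in limma 3.58.1 (R 4.3.3) on log2((changed reads + 0.5)/(other reads + 0.5)), weighted by inverse binomial variance, at an adjusted p of 0.05. On simulated data over 432 such sites, 15.0%, 60.0% and 67.5% of changes of 1, 2 and 3 in log2 odds were called, and 3 of 312 unchanged sites. Other tables used Python 3.11.15, pandas 2.3.3 and scipy 1.17.1. The members, gene lists and tests were chosen with earlier results of these data known. Named sites were up to 10 called sites by p at most 1 per gene (further called sites were named after their values were seen), the 4 largest non-overlapping differences in each direction, the 6 highest levels, the 5 genes with most shared sites (ties kept), 4 private sites per group, 2 genes per list, 4 C-to-U sites and RNF2; other genes were named after their values were seen. PE3 replicate 1 was not analysed here, and 1 listed gene and 1 site sequence are not reported here.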

Additional observations from a re-analysis of the deposited data

How the results depend on the processing

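Leaving out each library in turn, the level difference at shared A-to-I sites ranged from 3.35 to 4.38 points, the intronic difference from 7.30 to 9.55 and the 3' UTR difference from 2.49 to 3.60, all higher with EGFP. The number of called sites ranged from 1 to 19 in this way, and was 4 with unweighted percent, 10 with unweighted log2 odds and 7 in the quasi-binomial model. Private A-to-I sites ranged from 97 to 225 (EGFP) and from 67 to 126 (non-transfected) with a library left out, since fewer libraries must then agree, and were 37 and 31 with at least 20 covering reads and 35 and 14 with at least 5 changed reads. Results near 0 turned sign: other changes per Gb (log2 difference 0.062 with at least 20 covering reads, 0.080 with at least 5 changed reads, 0.040 unscaled, -0.043 to 0.025 without a library), C-to-U sites per Gb (-0.045 with at least 20 covering reads, -0.0032 without sites at 90% or more, -0.026 to 0.057 without a library), the A-to-I share (-0.0958 points with at least 20 covering reads), the coding share (0.0784 points likewise), the median A-to-I level (-0.00722 to 0.675 points without a library) and the clustered share (-0.487 to 2.64 points without a library). For these the cause was not tested. Site by site, same-numbered libraries did not deviate together (correlations 0.0078, 0.031 and -0.034). Counting error is part of these deviations, so the correlations cannot exclude a pairing. A-to-I sites per Gb ranked replicates 1, 3 and 2 from high to low in both groups. The level at shared sites ranked them 1, 2 and 3 with EGFP and 2, 1 and 3 without. With a replicate block limma called 16 sites, all 16 the same. The sign-flip test of the shared level gave an exact p = 0.25, the smallest it allows with n = 3 pairs. The shared sites were covered by a median of 34 reads. On data simulated for these 432 sites, a change of 1 in log2 odds was called at 6 of 40 changed sites (15.0%). Changes of that size were thus mostly missed in the simulation, whose spread between libraries was preset and not fitted to these data. In the data themselves, the smallest log2 odds difference of a called site was 0.79.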
